A study of Mus musculus with 2 samples.

Results

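The surfactant and lamellar body genes described here were 10 of the 19938 genes with a value of their own on the arrays: the surfactant proteins Sftpa1, Sftpb, Sftpc and Sftpd, the lamellar body and lipid genes Lamp3, Abca3, Slc34a2 and Lpcat1, and the proteases Napsa and Ctsh. They were chosen by symbol, and each was read by 1 probe set that the platform annotation assigns to that symbol alone. The arrays measured whole embryonic mouse lung at E13.5 from an Etv4;5 knockout pool and a wild type pool, each made of equal RNA from 3 samples and read on 1 Affymetrix array. The labels call the mutant lung both CKO and DKO, and the Cre line, the deleted parts of both genes and the sex of the embryos are not given in the sources used here. With 1 array a group there is no spread between samples, so no test was run and every difference compares these 2 arrays. Values are used as deposited and read as log2 units from their range, differences are knockout minus wild type, and levels are also given against the median of the array, which was 7.58 in the knockout pool and 7.60 in the wild type pool.

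Pulmonary surfactant is a film of phospholipids and proteins that lowers surface tension in the alveoli, and alveolar type 2 cells store it in lamellar bodies, organelles related to lysosomes. Surfactant proteins B and C are small hydrophobic proteins that sit in the lipid film, while surfactant proteins A and D are collectins, soluble lectins of innate immunity. In mouse lung Sftpc is already expressed in the distal tips of the branching epithelium, whereas most of the other genes are known for expression that builds up towards birth. In cultured mouse lung epithelial cells Etv5 is known to act on Sftpc transcription together with Nkx2-1, the transcription factor that marks lung epithelium.

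The arrays carried the markers of lung: all 6 defining epithelial markers and all 5 of lung mesenchyme counted as measured, meaning that the brighter of a gene's values reached the median of its array. Of the 3 liver markers, Alb and Afp were below the median on both arrays, and Apoa1 lay at it, at 7.56 in the knockout pool and 7.63 in the wild type pool. Etv4 was at 6.96 in the knockout pool and 7.59 in the wild type pool. The probe sets of Etv5 were at 11.28 and 11.17 in the knockout pool, against 11.51 and 11.41 in the wild type pool, so Etv5 signal was still high in the pool labelled knockout. Where the deleted part lies is unknown, and a probe set outside it would check nothing. Xist, the RNA of the inactive X of female cells, had a signal of 5.74 in the knockout pool and 12.34 in the wild type pool, and Kdm5d, Eif2s3y and Uty on the Y chromosome were higher in the knockout pool by 0.53, 0.53 and 0.64. The sex makeup of the pools therefore differed along with the genotype, and its part in the results below was not tested.

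Upstream sequences of members that differed are given as far as reference windows were at hand. No window was matched for Sftpc, Sftpd, Napsa and Ctsh, so Sftpc and Ctsh, which differed more than Sftpa1, are not shown. RefSeq windows (GRCm38.p6) of 250 bases before the annotated start were matched for 6 of 10 members, Sftpa1, Sftpb, Lamp3, Abca3, Slc34a2 and Lpcat1. The windows of Sftpb and Lamp3, both higher in the knockout pool, and of Sftpa1, which was lower, are printed 5′ to 3′ on the gene's strand, and capitals mark the motifs CGGAAG (a longer ETS form), CTCAAG and CAAGTG (forms bound by Nkx2-1), and TGTTTAC and TGTTTGC (forms bound by Foxa factors) on either strand.
Sftpb, chr6:72304360-72304609, plus strand: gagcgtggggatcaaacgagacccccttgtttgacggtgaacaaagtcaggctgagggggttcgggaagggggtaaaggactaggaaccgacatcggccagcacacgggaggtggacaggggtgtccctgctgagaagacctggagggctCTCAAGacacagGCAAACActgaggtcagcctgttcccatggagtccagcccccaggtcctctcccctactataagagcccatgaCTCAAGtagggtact
Lamp3, chr16:19706366-19706615, minus strand: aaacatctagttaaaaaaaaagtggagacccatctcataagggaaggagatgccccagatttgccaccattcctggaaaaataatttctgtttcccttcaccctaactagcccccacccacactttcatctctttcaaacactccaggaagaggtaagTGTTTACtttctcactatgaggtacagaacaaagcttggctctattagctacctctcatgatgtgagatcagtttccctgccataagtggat
Sftpa1, chr14:41131538-41131787, plus strand: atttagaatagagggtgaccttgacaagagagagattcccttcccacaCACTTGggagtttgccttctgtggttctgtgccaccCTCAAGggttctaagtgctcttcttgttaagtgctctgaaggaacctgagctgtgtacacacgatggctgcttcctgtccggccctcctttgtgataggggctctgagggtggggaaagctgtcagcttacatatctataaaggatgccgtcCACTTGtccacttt

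The Sftpb window held CTCAAG at 2 places, which begin at positions -100 and -15 from the annotated start, and TGTTTGC on the opposite strand at position -88. The Sftpa1 window held CTCAAG at 1 place and CAAGTG at 2 places. The Lamp3 window held neither Nkx2-1 form and had TGTTTAC at 1 place, position -92. Of 32817 windows of this length, 13.3% held CTCAAG, 11.6% CAAGTG, 3.16% TGTTTAC and 4.30% TGTTTGC. The windows of Abca3, Slc34a2 and Lpcat1 held none of these 4 forms. CGGAAG, found in 13.6% of windows, was in none of the 6. The bare ETS core GGAA, which CGGAAG contains, was in all 6, as it was in 93.4% of all windows, with 6 places in Lamp3, 5 in Sftpa1, 3 in Sftpb and Lpcat1, 2 in Slc34a2 and 1 in Abca3. A match of letters describes the sequence only and does not show that a factor binds there.

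The 4 surfactant protein genes did not move as a group. Sftpb, which encodes surfactant protein B, was at 11.04 in the knockout pool and 9.12 in the wild type pool. Against the array median this was 3.45 in the knockout pool and 1.52 in the wild type pool, a difference of the raw values of 1.91 (3.77-fold higher). Sftpb lay well above the median on both arrays, so neither of its values was dim. Among the 1000 genes nearest to it in level, 0 differed by as much, and the central 95% of those genes ran from -0.17 to 0.14.

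Sftpc, which encodes surfactant protein C, went the other way. It was at 9.74 in the knockout pool and 10.86 in the wild type pool, which is 2.16 above the median in the knockout pool and 3.26 above it in the wild type pool. The difference was -1.12 (2.18-fold lower), and 1 of the 1000 genes nearest in level differed as much. Sftpc was thus lower in the knockout pool and still far above the median there. The change of Sftpb exceeded that of Sftpc by 3.04 log2 units, so the ratio of Sftpb to Sftpc signal was 8.20-fold higher in the knockout pool; a shift of a whole array cancels in this ratio.

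The collectin genes differed less. Sftpa1, which encodes surfactant protein A, was at 8.33 in the knockout pool and 8.63 in the wild type pool, 0.75 and 1.03 above the medians of these arrays, a difference of -0.30 (1.23-fold lower). Of the 1000 genes nearest in level 19 differed as much, and their central 95% ran from -0.24 to 0.21, so Sftpa1 lay just below that range. Sftpd, which encodes surfactant protein D, was at 6.74 in the knockout pool and 6.53 in the wild type pool, or -0.84 and -1.07 against the medians. Its difference of 0.22 was inside the range of genes nearest in level, -0.19 to 0.32, and both its values were dim.

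**Figure D1:**
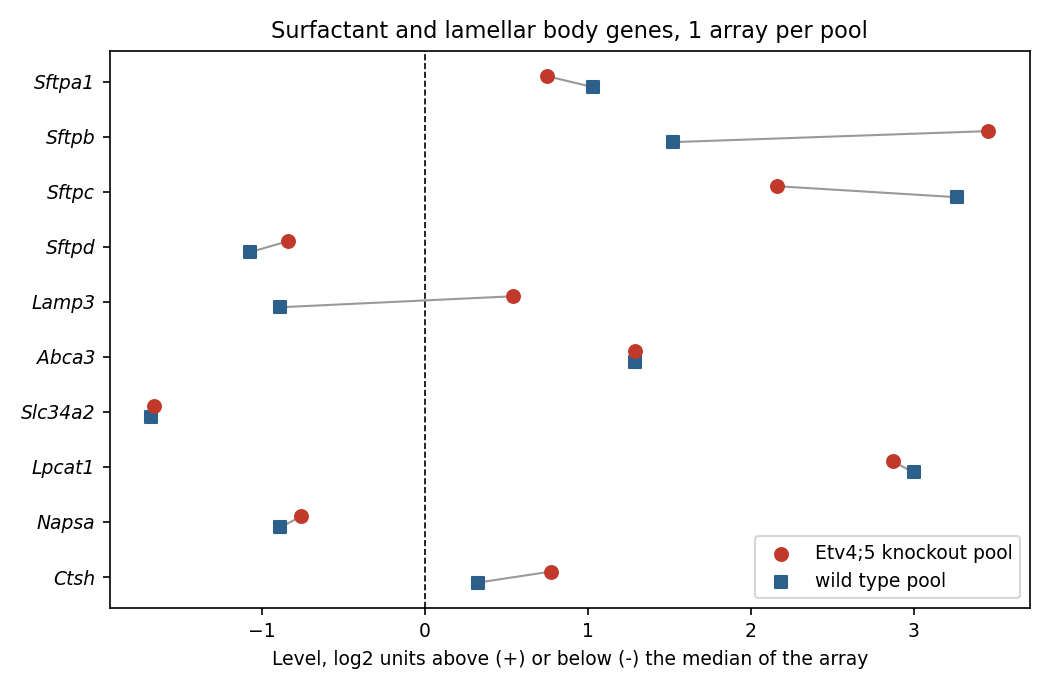
Level of each of the 10 genes against the median of its array (x axis, log2 units; the dashed line is the median), with the knockout pool as circles and the wild type pool as squares, 1 array each. Sftpb (3.45 against 1.52) and Lamp3 (0.54 against -0.89) lie to the right in the knockout pool, Sftpc (2.16 against 3.26) lies to the left, and the symbols of Abca3 and Slc34a2 nearly coincide.

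Of the genes for lamellar body membrane and lipid handling, Lamp3 stood out. Lamp3, a lysosome-associated membrane protein found on lamellar bodies, was at 8.13 in the knockout pool and 6.71 in the wild type pool, which against the median is 0.54 in the knockout pool and -0.89 in the wild type pool. The difference was 1.42 (2.67-fold higher), and 1 of the 1000 genes nearest in level differed as much. Lamp3 counted as measured only through its knockout value, and its wild type value is dim, so the size of the difference rests on a weak signal.

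The other 3 genes of this role differed little. Abca3, the transporter that loads phospholipid into lamellar bodies, was at 8.87 in the knockout pool and 8.89 in the wild type pool. Its difference of -0.02 turned to 0.0018 once each array was set to its own median, so it carries no direction. Lpcat1, an acyltransferase that makes the dipalmitoyl phosphatidylcholine of surfactant, was at 10.45 in the knockout pool and 10.60 in the wild type pool, a difference of -0.15 inside the range of genes nearest in level (-0.20 to 0.10). Slc34a2, the phosphate transporter of type 2 cells, had the value 5.92 on both arrays, or -1.66 against the median of the knockout array and -1.68 against that of the wild type array. Exactly equal values are common in this table: 33.5% of all genes and 43.4% of the 1000 genes nearest to Slc34a2 had them, and no reason is given in the sources used here.

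Both proteases that process the surfactant protein precursors had higher values in the knockout pool, by smaller amounts. Ctsh, which encodes cathepsin H, a protease that trims the precursor of surfactant protein B, was at 8.36 in the knockout pool and 7.93 in the wild type pool, 0.78 and 0.33 above the medians. Its difference was 0.43 (1.35-fold higher), and 12 of the 1000 genes nearest in level differed as much. Napsa, which encodes napsin A, an aspartic protease that also cleaves that precursor, was at 6.82 in the knockout pool and 6.71 in the wild type pool. Its difference of 0.11 lay inside the range of genes nearest in level (-0.19 to 0.31), and both values were dim.

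Counted over all 10 genes, 5 were higher, 4 lower and 1 equal, where 33.4% of all genes were higher and 33.2% lower. Abca3 is among the 4 lower and Slc34a2 is the equal one. With each array set to its own median they were at 0.0018 and 0.017, so the count depends on the scaling. The median of the unscaled differences was 0.06, beside 0.00 over all 19938 genes. The mean was 0.25, drawn up by Sftpb and Lamp3. At least 2-fold higher were 2 of the 10, Sftpb and Lamp3, beside 0.0301% of all genes, and at least 2-fold lower was 1, Sftpc, beside 0.0251%. The same 3 genes were past 1.5-fold, where 0.266% of all genes were. Outside the central 95% of the genes nearest in level lay 5 of the 10, Sftpb, Lamp3 and Ctsh above it and Sftpa1 and Sftpc below it, beside 5.13% of all genes (2.55% above and 2.57% below). These genes were grouped with earlier results of these data known, so the counts describe them and are no independent evidence.

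**Figure D2:**
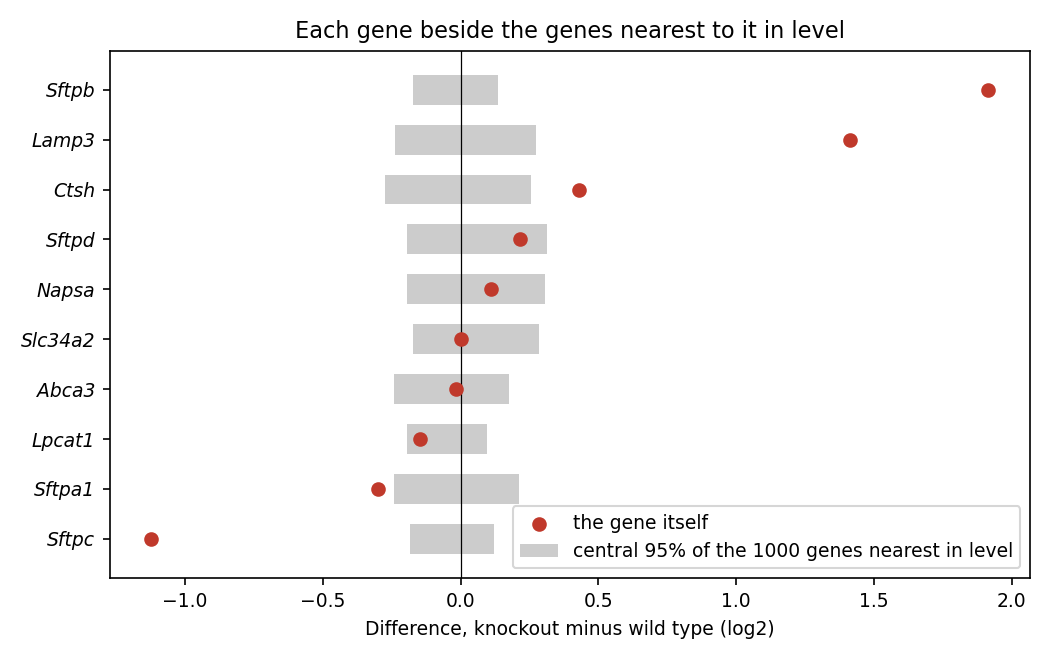
Difference of each gene (points, knockout minus wild type, log2) over the central 95% of the differences of the 1000 genes nearest to it in mean level (grey bars). Sftpb, Lamp3 and Ctsh lie to the right of their bars and Sftpa1 and Sftpc to the left, while the other 5 genes lie within theirs.

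**Figure D3:**
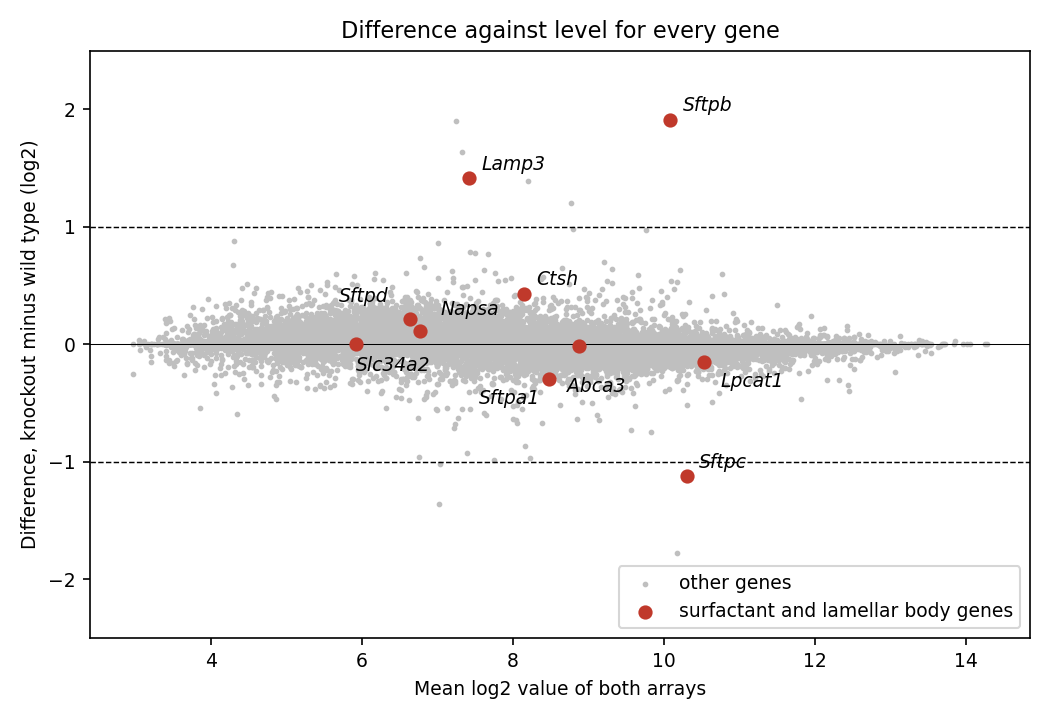
Difference (knockout minus wild type, log2) against the mean log2 value of both arrays, with all genes as grey dots, the 10 surfactant and lamellar body genes in red and dashed lines at 2-fold; Xist (-6.60) is outside the axis. Sftpb and Sftpc stand apart at a bright level, where the scatter of other genes is narrow, and Lamp3 at a dimmer one.

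The difference of the surfactant genes was set beside that of the epithelium as a whole. General lung epithelium had 19 higher and 3 lower genes among 25 measured, a median difference of 0.10, beside 25.7% of all measured genes that were higher and 47% that were lower. Of the higher genes in this list Elf3, named after its value was seen, counted as measured only through its knockout value. Over all 26 matched genes of that list the summed signal, taken back to the linear scale, was 26931 in the knockout pool and 24207 in the wild type pool. Krt18 and Krt19, keratins of simple epithelia, were higher by 0.47 and 0.45, Nkx2-1 by 0.12 and the surface protein gene Epcam by 0.09. Less the epithelial median, Sftpb was higher by 1.81, Lamp3 by 1.31 and Ctsh by 0.33, and Sftpc and Sftpa1 were at -1.22 and -0.40. The other members came to 0.11 for Sftpd, 0.0087 for Napsa, -0.10 for Slc34a2, -0.12 for Abca3 and -0.25 for Lpcat1, of which Sftpd, Napsa and Slc34a2 were dim. Subtracting 1 value moves every gene alike, and the part of the epithelial shift in these differences was not tested. In whole lung RNA, more cells of a type and more RNA per cell cannot be told apart.

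Sftpb is also expressed by club cells of the airways, so airway markers bear on it. The club cell genes Scgb1a1, Scgb3a2 and Cyp2f2 are named here after their values were seen. Scgb1a1 was dim, at 4.26 on both arrays, as was Scgb3a2, at 6.34 in the knockout pool and 6.06 in the wild type pool. Cyp2f2 was measured, at 7.92 in the knockout pool and 7.86 in the wild type pool, a difference of 0.06. Of 17 proximal airway genes 4 were measured and all 4 were higher, beside 25.7% of all measured genes, with Aldh1a7 at 0.41 and Klf5 at 0.40. The remaining measured ones differed little, Sox2 (named after its value was seen) at 0.07 and Cyp2f2 at 0.06. Over all 17 genes 9 were higher, 8 equal and 0 lower, where 33.4% of all genes were higher and 33.2% lower. Their median was 0.0030, and their summed linear signal was 4659 in the knockout pool and 3922 in the wild type pool. The part of airway epithelium in the Sftpb difference was not tested.

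Other genes known from alveolar type 2 cells were also mixed in direction. Of 28 matched genes 12 were higher, 12 lower and 4 equal, with a median of 0.00, where 33.4% of all genes were higher and 33.2% lower. Among the 18 measured, Egfl6, a secreted protein with EGF-like repeats, was 1.51-fold higher (9.96 in the knockout pool and 9.37 in the wild type pool, a difference of 0.59), and it was the only measured one past 1.5-fold in either direction, beside 0.335% of measured genes. Car8, which encodes a carbonic anhydrase-related protein, was at 8.65 in the knockout pool and 8.09 in the wild type pool, a difference of 0.55. Hhip, a Hedgehog-binding protein named after its value was seen, was nearly as far in the other direction, at 10.05 in the knockout pool and 10.57 in the wild type pool (-0.52). Alveolar type 1 genes, of the flat cells of gas exchange, were lower in 9 and higher in 3 of 14 measured. Of all measured genes 47% were lower and 25.7% higher. The median of the type 1 genes was -0.04, and -0.02 once the arrays were set to equal medians. The furthest members were Aqp5, a water channel, and Emp2, a membrane protein, which were higher by 0.37 and 0.36. Aqp5 counted as measured only through its knockout value. Named after their values were seen, Ager, Igfbp2 and Pdpn were the furthest in the other direction, at -0.35, -0.30 and -0.28.

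The machinery around surfactant showed no difference of the size seen in Sftpb, Sftpc or Lamp3. Of 28 measured genes of phospholipid and fatty acid synthesis 9 were higher, 12 lower and 7 equal (median 0.00). Of all measured genes 25.7% were higher, 47% lower and 27.3% equal, which is the background for both lysosome lists below too. In the phospholipid and fatty acid list 0 passed 1.5-fold, beside 0.335% of all measured genes. So few genes pass that threshold that a count of 0 says little about a list of this size. The furthest were Fabp5, a fatty acid binding protein, with -0.41 and -0.36 on its 2 probe sets, and Scd1, a fatty acid desaturase, with -0.26. Of 22 measured genes of lysosome-related organelle biogenesis 6 were higher, 9 lower and 7 equal (median 0.00), with the small GTPase gene Rab38 at 0.18 and the calcium sensor gene Syt7 at 0.16. Rab27a, named after its value was seen, is among the 6 higher and counted as measured only through its knockout value. Of 22 measured lysosomal proteases and membrane proteins 7 were higher, 8 lower and 7 equal (median 0.00). In either lysosome list 0 passed 1.5-fold, beside the same 0.335%. Ctsc, which encodes cathepsin C, was the furthest of these at 0.33, and Lamp1 and Lamp2, the ubiquitous relatives of Lamp3, were at 0.00 and -0.08 (both named after their values were seen).

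Transcription factors known to act on surfactant genes were compared last. Of 27 measured, 10 were higher, 13 lower and 4 equal, with a median of 0.00. Of all measured genes 25.7% were higher, 47% lower and 27.3% equal. Past 1.5-fold were 0 of the 27 factors, beside 0.335% of all measured genes. The targeted gene Etv4, also on this list, was 1.55-fold lower (-0.63) but narrowly missed counting as measured. Its wild type value was at -0.01 against the median of that array. Over all 30 matched genes Etv4 was the 1 gene past 1.5-fold, beside 0.266% of all genes. Nkx2-1, which activates the surfactant protein genes, was at 10.70 in the knockout pool and 10.58 in the wild type pool. Foxa2 and Gata6, further activators, were higher by 0.10 and 0.05, and Foxa1 was at -0.04. Klf5, an epithelial zinc finger factor, was higher by 0.40 (9.78 in the knockout pool and 9.38 in the wild type pool). Sox9 and Id2, factors of the distal tip progenitors, were at -0.32 and -0.31. Cebpa, active in later type 2 cell maturation, was dim on both arrays, at 7.30 in the knockout pool and 7.26 in the wild type pool.

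**Figure D4:**
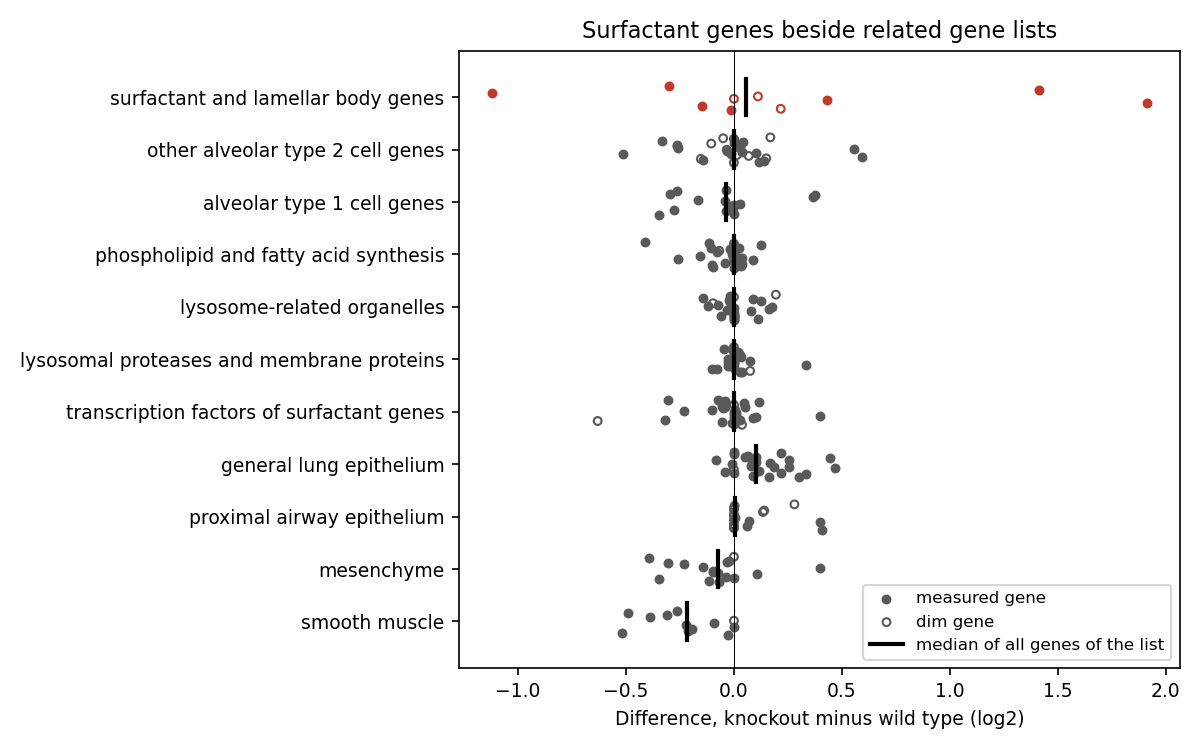
Difference (knockout minus wild type, log2) of each gene in the 10 surfactant and lamellar body genes (red) and in related lists (grey), with filled points for measured genes, open points for dim ones and a black line at the median of the list. The red points run from -1.12 to 1.91, wider than any other list drawn, while the medians of the lipid, lysosome and transcription factor lists are at 0.00.

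Markers of the tissues around the epithelium mostly had lower values in the knockout pool, where 47% of all measured genes were lower and 25.7% higher. Smooth muscle had 10 lower and 0 higher genes among 11 measured (median -0.22, Pcp4 at -0.52 and Synpo2 at -0.49), and the summed linear signal of all 12 was 18838 in the knockout pool and 20834 in the wild type pool. Mesenchyme had 13 lower and 2 higher genes among 16 measured (median -0.09), with Foxf1 at -0.40 and Fgf10, the ligand that draws out the distal tips, at 0.40. Macrophages are known to express Ctsh too. Leukocyte genes were lower in 6 of 7 measured and higher in 0 (median -0.10, Mrc1 at -0.17 and Csf1r at -0.15), and over all 13 matched genes 7 were lower, 5 equal and 1 higher, the last being Cd14 at 0.26 (named after its value was seen). Endothelial genes had a median of -0.02, and -0.0022 once the arrays were set to equal medians, with Pecam1 at -0.08 and Tek at -0.08. The 4 measured erythroid genes had a median of -0.24, with Slc4a1 at -0.26 and Hba-x at -0.25. Mesothelial genes had a median of 0.00 over 9 measured, of which 4 were higher, 3 lower and 2 equal. The furthest were Krt19, which is also on the epithelial list, at 0.45 and Bnc1 at 0.20. Neuroendocrine and neural genes had 2 measured members, Ret at 0.14 and Uchl1 at -0.05, and liver genes 1, Apoa1 at -0.08. The part of these shifts in the surfactant gene differences was not tested.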

How the data were processed

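The authors' deposited table gives 1 processed value per probe set and array, taken here as log2 expression from its range (2.69 to 14.4 in the knockout pool, 2.72 to 14.4 in the wild type pool). Per the labels' protocols, total RNA was prepared with a column kit, biotin-labelled and hybridised to Affymetrix arrays; log base, summary and normalization are not given in the sources used here. Of 35557 probe sets, 21789 had 1 symbol in the platform annotation, 1621 several and 12147 none. A gene took its probe set with the highest mean, which gave 19938 genes (19919 with that symbol in the RefSeq table, assembly GRCm38.p6), and 11045 of them were measured. With equal values the higher median had to be reached. No floor or offset was applied. The 10 members and all lists were chosen with earlier results of these data known. Named in each list were measured genes past 1.5-fold (at most 6), or the 2 furthest. Defining cell type markers and the transcription factors were named besides, and other exceptions are stated. Places among the 1000 genes nearest in level were taken over all genes, not over measured genes as planned, because 3 members were dim; over measured genes 2 differed as much as Lamp3. Simulated differences written into 1 probe set per gene were read back, and a constant shift between arrays was removed by the 3 scalings. That outcome follows from the arithmetic, and the nearest-in-level ranges, lists and motifs were not tested this way. A planned comparison of protein sequences was not run. Alternatives were 3 scalings, the mean over probe sets, 2 level filters, a floor, 2 thresholds and list means. Precision is limited by the 2 arrays. Software was Python 3.11.15, numpy 2.4.6, pandas 2.3.3, statsmodels 0.14.6 and matplotlib 3.10.9.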

Additional observations from a re-analysis of the deposited data

How the results depend on the processing

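No paired analysis was possible because each group has 1 array, and no array could be left out. Scalings to equal medians, by quantile or by loess (span 0.3), the mean over probe sets and a floor at the 25th percentile left Sftpb between 1.91 and 1.94, Lamp3 between 1.40 and 1.43, Ctsh between 0.43 and 0.45, Sftpa1 between -0.30 and -0.28 and Sftpc between -1.12 and -1.10. Abca3 ranged from -0.02 to 0.01 and Slc34a2 from -0.02 to 0.02, so neither has a direction. Among measured genes the counts of 6 at least 2-fold higher and 4 lower were 19 and 18 at 1.5-fold and 3 and 2 at 3-fold, and the higher count was 2 with a filter at the 75th percentile; these follow from the threshold or from fewer genes. Of the 3 members past 2-fold, 1 (Sftpb) passed 3-fold. The median of the 7 measured members was -0.02, of all 10 members without the filter 0.056, of those past the 75th percentile -0.15, and the mean of the measured ones 0.31. The measured surfactant proteins had a median of -0.30, all 4 without the filter -0.041, and the measured ones a mean of 0.16; the lamellar body and lipid genes had a median of -0.02 and a mean of 0.42. Without the filter the medians were 0.0030 for proximal airway, -0.031 for leukocyte and -0.075 for erythroid genes. The general epithelium median was 0.19 with the 75th percentile filter, and the erythroid mean was -0.19. The cause of these moves of medians and means was not tested. Moves under 0.04, the median gap between the differences of a gene's probe sets over 777 genes with 2, were taken as no change.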

Other observations

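The genes beside Sftpb, Sftpc and Lamp3 on their chromosomes were looked up after these 3 differences were seen, taking the nearest 3 measured genes on each side in the RefSeq gene order. On chromosome 6, Polr1a, St3gal5 and Atoh8 before Sftpb were at -0.0036, -0.04 and 0.00, and Usp39, 0610030E20Rik and Tmem150a after it at 0.00, -0.05 and 0.05, beside 1.91 for Sftpb itself. On chromosome 14, Polr3d, Mir320 and Bmp1 before Sftpc were at 0.09, 0.13 and 0.01, and Lgi3, Reep4 and Fam160b2 after it at -0.14, 0.0003 and 0.02, beside -1.12 for Sftpc. Lgi3, also known from alveolar type 2 cells, was at 9.83 in the knockout pool and 9.97 in the wild type pool. Chromosome 16, which carries Lamp3, also carries the targeted gene Etv5, and the part of this in the Lamp3 difference was not tested. There, 2510002D24Rik, Mrpl40 and Hira before Lamp3 were at 0.07, -0.02 and -0.13. B3gnt5, Klhl6 and Klhl24 after it were at -0.13, 0.00 and -0.07, beside 1.42 for Lamp3. None of these 18 neighbours reached 1.5-fold, where 0.335% of all measured genes did, so this count says little about them.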
